A study of Mus musculus with 33 samples.

Results

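Microglia of the cerebellum (Cb) were compared with microglia of the cortex (Cx) at postnatal day 10 (P10). The comparison held 8 RNA-seq libraries, 4 from each region, of the 33 libraries in the study, and they were chosen by their labels for region and age alone. The study sorted microglia from the Cx, the Cb and the corpus callosum (CC) at 3 ages, P7, P10 and P42, to set white against grey matter regions during development. All mice were untreated C57BL6 animals without a transgene named in the labels, kept under SPF conditions and killed by perfusion. The methods name wildtype C57BL/6 J and Cx3cr1 GFP/WT mice and do not say which were sorted for sequencing. Each of the 2 groups held 2 libraries from female and 2 from male mice. Cells were taken by FACS as CD45+, CD11b+ and Gr1- cells, a gate that macrophages of the brain borders can also pass. The sources do not say whether a library came from 1 mouse or a pool, or whether libraries of a group came from separate mice, so the p-values below measure the spread between these libraries.

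Microglia are the resident macrophages of the brain. In the first weeks after birth they clear dying cells and prune synapses, and those in developing white matter are known for a rounded shape and for genes of phagocytosis and lipid handling. The Cb differs from the Cx in that its granule neurons are still being formed after birth, next to the early myelinating tracts of its white matter.

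The 8 libraries held 34745241 to 58065163 counted reads each, with the most in Cb replicate 2. All 8 libraries matched the sex on their label, and libraries of 1 group differed from each other by more than sampling noise (chi-square per degree of freedom from 27.9 to 58.5 over 11081 genes). Genes that microglia express were read in every library. The 2 given here do not by themselves set microglia apart from border macrophages, which can pass the gate. Csf1r, the receptor on which microglial survival depends, averaged 16482 ± 595 CPM (counts scaled to library size, SD, n = 4) in the Cb and 16622 ± 812 CPM in the Cx. Cx3cr1, the receptor for neuronal fractalkine, averaged 2550 ± 33.5 CPM and 2598 ± 77.8 CPM, with overlapping libraries. Reads on the 92 spike-in sequences numbered 93 over the 8 libraries and were not used.

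Region explained 27.8% of the variance among the 8 libraries over 10086 expressed genes. That was more than any of the other ways to split the 8 libraries into groups of 4, of which the next highest reached 16.95% (exact permutation test, one-sided, 70 arrangements, p = 0.0286, the smallest p this design allows). Sex explained 13.2%. Of 20917 genes tested, 31 were called differentially expressed between the Cb and Cx, meaning that the adjusted p did not exceed 0.01 and the log2 fold change was at least 1 in either direction. Of these, 27 were higher in the Cb (0.129% of all genes tested) and 4 were lower (0.0191%). The 4 Cb libraries all lay above the 4 Cx libraries for 26 of the 27, the exception being Slpi, and all lay below for the 4 others. Over all genes tested, the libraries were separated in this way with the Cb above for 3.22% and with the Cb below for 4.85%. At an adjusted p of 0.05 or less, with no limit on fold change, 60 genes were higher in the Cb (0.287%) and 31 were lower (0.148%). The number of genes called fell to 19 without Cx replicate 3 (17 higher and 2 lower), and 1 gene was called lower without Cb replicate 2. The 91 genes at the 0.05 limit became 53 without Cx replicate 2, 55 without Cb replicate 3 and 59 without Cx replicate 3.

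**Figure D1:**
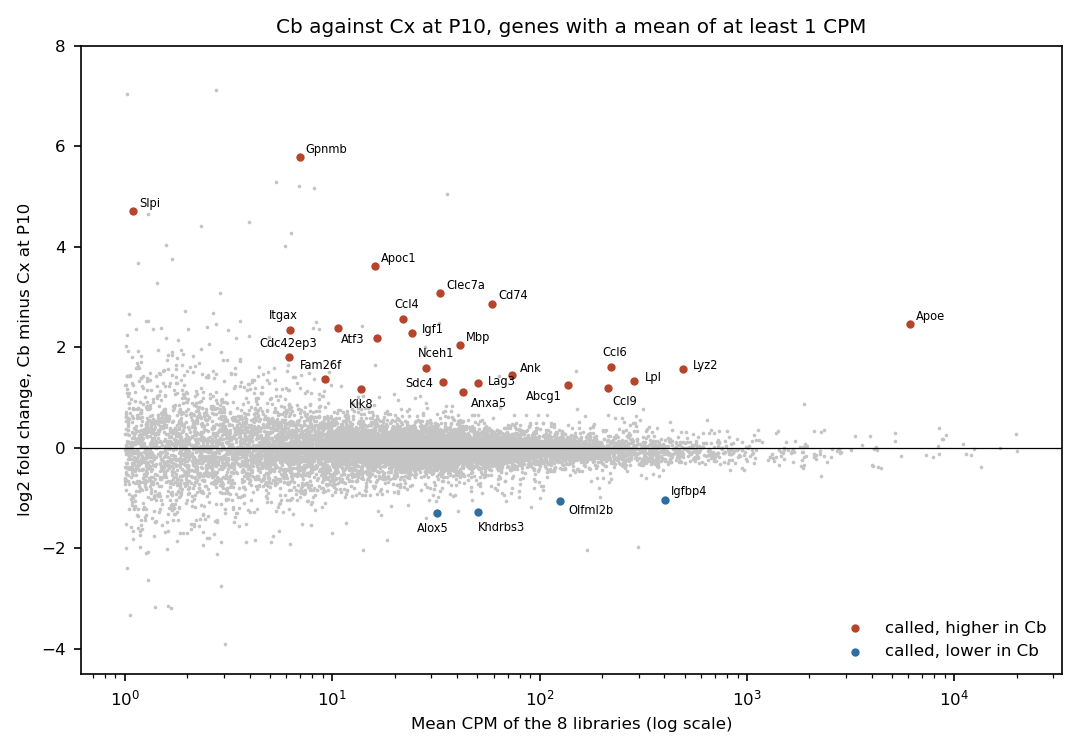
Log2 fold change between the Cb and Cx at P10 against the mean CPM of the 8 libraries (log axis), for the 11339 genes whose mean reached 1 CPM. Coloured points are called genes, red for the 25 drawn as higher in the Cb and blue for the 4 lower. Neurod1 and Xylt1 had no read in the Cx, lie under 1 CPM and are not drawn.

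Genes of lipid transport were among those higher in the Cb. Apoe, the main lipid carrier protein of the brain, was measured at 10763, 10704, 12048 and 7873 CPM in the 4 Cb libraries and at 1934, 1832, 1910 and 1842 CPM in the Cx libraries. The lowest Cb library was thus above every Cx library, and the mean was 5.5 times that of the Cx (log2 fold change 2.46 ± 0.21 SE, adjusted p = 1.31e-08). Apoc1, a second apolipoprotein gene and the neighbour of Apoe on chromosome 7, stood at 41.2, 31.6, 20.3 and 25.8 CPM in the Cb against 2.72, 2.68, 1.43 and 2.83 CPM in the Cx. Its mean was 12.3 times higher (log2 fold change 3.62 ± 0.45, adjusted p = 1.52e-05), with no overlap. Apoe lies at chr7:19696109-19699188 and Apoc1 at chr7:19689481-19692660, both on the minus strand of GRCm38.

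Lpl, the lipase that frees fatty acids from lipoproteins, was read at 393, 461, 487 and 297 CPM in the Cb and at 159, 191, 168 and 136 CPM in the Cx (log2 fold change 1.33 ± 0.18, adjusted p = 6.89e-05). Abcg1, which exports cholesterol to lipoprotein particles, was read at 190, 214, 220 and 145 CPM against 84.7, 79.0, 84.3 and 77.8 CPM (log2 fold change 1.24 ± 0.11, adjusted p = 3.95e-08). In both genes Cb replicate 4 was the lowest Cb library and still lay above all Cx libraries. Nceh1, a hydrolase of cholesterol esters, was also higher in the Cb (42.4 ± 9.24 against 14.1 ± 3.33 CPM, adjusted p = 0.00175), a call that ended without Cx replicate 1 or 3 or Cb replicate 2. A list of lipid and cholesterol genes, which does not hold Nceh1, had 33 tested genes. Of these, 4 were higher at 0.05, namely Apoe, Apoc1, Lpl and Abcg1, and 0 were lower. Over all genes tested, 0.287% were higher and 0.148% lower at that limit, the shares to set beside this list and those below. The median of the list was 0.21 on the log2 scale, next to -0.02 over all genes tested. Abca1, the partner of Abcg1 in cholesterol export, averaged 355 ± 77.3 CPM in the Cb and 229 ± 52.4 CPM in the Cx (adjusted p = 0.145), and its libraries overlapped.

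The study named 12 priming genes, known from microglia that respond strongly to a stimulus. It showed them on these samples, so their count is not independent evidence of a direction. It reported that their upregulation was gone by P10 in every region studied. By immunostaining it found no CLEC7A or CD206 (Mrc1) in white matter microglia of the Cb at any age. In microglia of the Cx it found neither these nor SPP1 at any age. The values here are RNA of sorted cells, not protein. Of the 12, 6 were higher in the Cb at an adjusted p of 0.05 and 0 were lower, with a median log2 fold change of 1.64. Of the 6, 5 were called, and Axl passed only the 0.05 limit. Clec7a, the receptor for fungal glucans also called dectin-1, stood at 66.9, 55.1, 70.7 and 44.9 CPM in the Cb and at 6.64, 7.12, 6.57 and 7.91 CPM in the Cx. The mean was 8.42 times higher and the groups were far apart (log2 fold change 3.07 ± 0.26, adjusted p = 1.12e-08). Clec7a lies at chr6:129461591-129472779 on the minus strand of GRCm38.

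Gpnmb, a membrane glycoprotein of phagocytic cells, stood at 17.5, 14.5, 16.8 and 5.83 CPM in the Cb and at 0.620, 0.318, 0.0716 and 0 CPM in the Cx. The 4 Cx libraries held 23, 14, 3 and 0 reads of it, so its fitted log2 fold change of 5.78 ± 0.98 (adjusted p = 0.0017) rested on few reads on the Cx side. It was not called without Cx replicate 2, 3 or 4 (adjusted p of up to 0.303 over all alternatives). Igf1, a growth factor for neurons and oligodendrocytes, stood at 39.7, 40.5, 55.3 and 25.0 CPM against 11.9, 5.98, 7.78 and 7.47 CPM (log2 fold change 2.28 ± 0.44, adjusted p = 0.00802). Igf1 kept its call only without Cb replicate 4 among the 8 fits that each left out 1 library, and its adjusted p reached at most 0.0549.

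Itgax, which encodes CD11c, was higher in the Cb (10.4 ± 2.73 against 2.05 ± 0.694 CPM, adjusted p = 0.00458), and so was Anxa5, which binds exposed phosphatidylserine (58.2 ± 11.6 against 27.0 ± 2.27 CPM, adjusted p = 0.00147). Leaving out Cx replicate 2, 3 or 4 or Cb replicate 2 ended the call of Itgax, and leaving out Cx replicate 3 that of Anxa5. Both also lost their calls with limma-voom and with only the 12 libraries of P10. The adjusted p reached 0.059 for Itgax and 0.0577 for Anxa5 over all alternatives. Axl, a receptor for bridging proteins on dying cells, averaged 93.4 ± 20.8 CPM in the Cb and 34.5 ± 6.87 CPM in the Cx (log2 fold change 1.44, adjusted p = 0.0329). Its adjusted p reached 0.152 over all alternatives. Spp1, the secreted phosphoprotein osteopontin, stood at 202, 262, 324 and 102 CPM in the Cb and at 71.6, 79.3, 92.8 and 64.0 CPM in the Cx. The groups did not overlap for Spp1, yet it did not pass (log2 fold change 1.53, adjusted p = 0.471). Mrc1, the mannose receptor, went the other way at 120 ± 13.2 against 474 ± 19.8 CPM and did not pass either (log2 fold change -1.98, adjusted p = 0.06). Mrc1 did not overlap between the regions and passed in other fits, such as that of only the 8 libraries and limma-voom (adjusted p = 2.4e-08), but not with limma-trend (0.307), over a log2 fold change of -2.02 to -1.91. The remaining priming genes, Gas7, Lgals3, Cd36 and F13a1, had adjusted p-values from 0.0978 to 1. Of the 5 phagocytosis genes that the study picked as regulated in these samples (Gsn, Cd36, Abca1, Grk6 and Scarb1), 0 passed at 0.05.

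Chemokine genes formed a further group. Ccl6 stood at 354, 330, 338 and 307 CPM in the Cb and at 103, 112, 118 and 103 CPM in the Cx (log2 fold change 1.61 ± 0.10, adjusted p = 3.37e-11). Ccl9, its neighbour on chromosome 11, stood at 298, 324, 312 and 259 CPM against 115, 147, 146 and 117 CPM (log2 fold change 1.19 ± 0.13, adjusted p = 1.35e-06). Both attract myeloid cells, and for both the Cb libraries lay well above those of the Cx. Ccl4, which attracts monocytes and T cells, stood at 41.9, 43.3, 39.1 and 25.9 CPM against 5.40, 6.53, 6.11 and 7.28 CPM (log2 fold change 2.57 ± 0.40, adjusted p = 0.000609). It was not called with limma-voom (adjusted p = 0.145) or with only the 12 libraries of P10. Ccl3, a ligand of CCR1, passed at 0.05 (45.1 ± 12.6 against 11.2 ± 1.67 CPM, adjusted p = 0.0144). With Igf1, these made 5 of 33 tested cytokine and chemokine genes higher at 0.05 and 0 lower, with a median log2 fold change of 0.67.

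**Figure D2:**
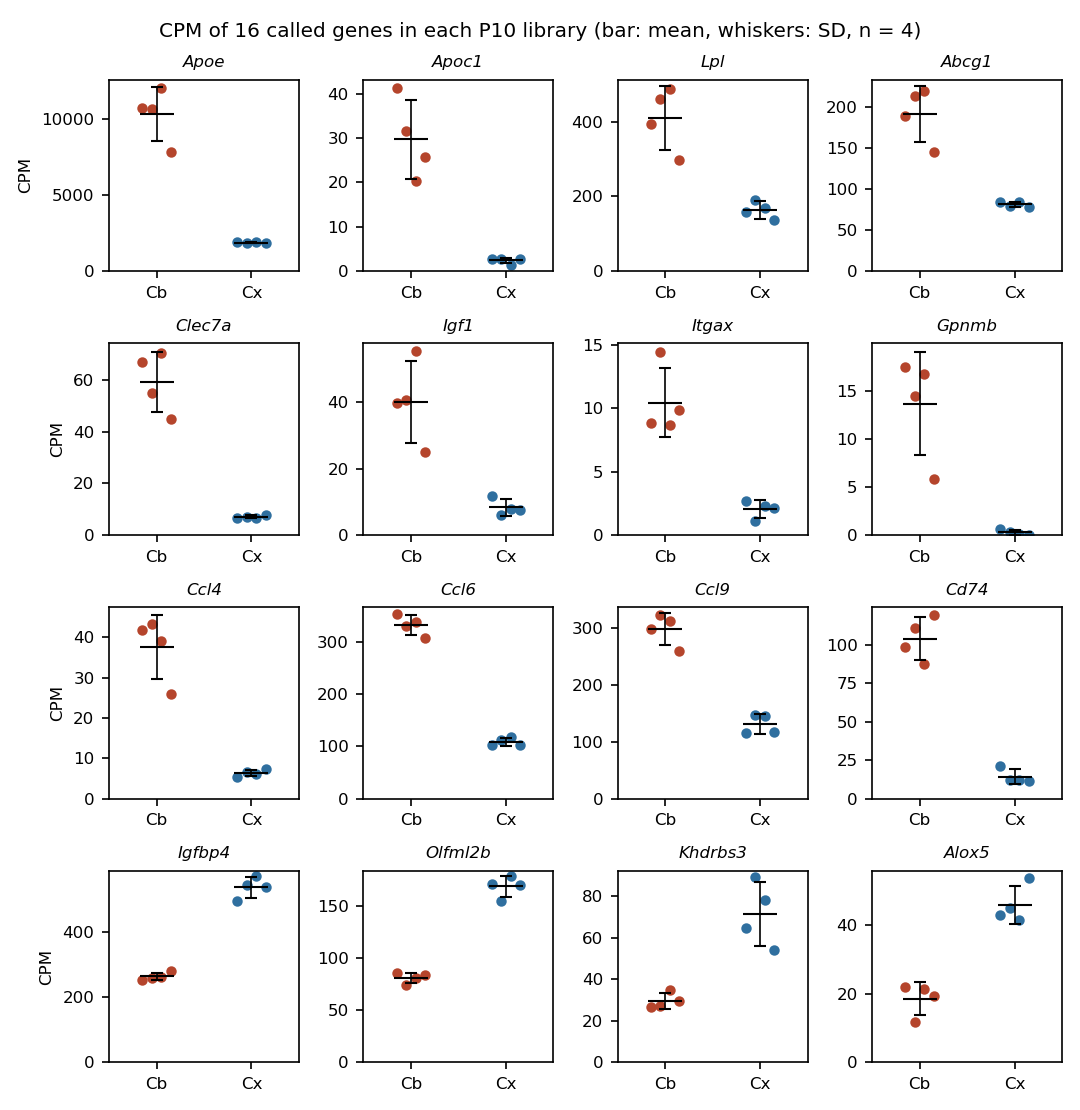
CPM of 16 called genes in each of the 4 Cb and 4 Cx libraries of P10, on linear axes from 0. Points are libraries, the bar is the mean and the whiskers the SD (n = 4), and in none of the 16 genes do the Cb and Cx points overlap.

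Among receptors for such signals, Ccr1, a receptor for CCL3, was lower in the Cb at the 0.05 limit. It stood at 87.3, 62.0, 52.6 and 63.1 CPM in the Cb and at 291, 293, 179 and 326 CPM in the Cx (log2 fold change -2.04 ± 0.41, adjusted p = 0.0129). The adjusted p of Ccr1 reached 0.0744 over all alternatives. Cd83 was higher (299 ± 37.6 against 198 ± 10.8 CPM, adjusted p = 0.00676). Of 29 tested chemotactic and surface receptors, 1 was higher and 2 were lower, and the median of the list was -0.02.

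Genes of antigen presentation differed for a few members. Cd74, the invariant chain that escorts MHC class II molecules, stood at 98.6, 111, 87.4 and 119 CPM in the Cb and at 21.3, 12.3, 12.2 and 11.2 CPM in the Cx. The highest Cx library, replicate 1, was still far under the lowest of the Cb (log2 fold change 2.87 ± 0.33, adjusted p = 4.19e-06). The class I genes H2-D1 (764 ± 23.1 against 521 ± 50.1 CPM, adjusted p = 0.0234) and H2-K1 (335 ± 16.2 against 247 ± 19.7 CPM, adjusted p = 0.0488) were higher by less than 1 log2 unit. These 3 of 24 tested genes passed at 0.05 and 0 were lower, with a median of 0.18. Over all alternatives the adjusted p reached 0.125 for H2-D1 and 0.226 for H2-K1. Lag3, a receptor that binds MHC class II, was called higher in the Cb, at 62.4, 85.3, 58.2 and 79.7 CPM against 39.0, 24.4, 28.2 and 25.7 CPM (log2 fold change 1.29 ± 0.17, adjusted p = 6.61e-05).

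Lyz2, the lysozyme of macrophages, stood at 782, 791, 821 and 540 CPM in the Cb and at 267, 254, 222 and 242 CPM in the Cx (log2 fold change 1.57 ± 0.13, adjusted p = 1.03e-08). Of 26 tested lysosomal genes, 3 were higher at 0.05 and 0 were lower, with a median of 0.23. They were the protease gene Ctsb (9632 ± 882 against 7316 ± 95.3 CPM, adjusted p = 0.000636), the protease inhibitor gene Cst7 (35.6 ± 5.84 against 17.5 ± 2.35 CPM, adjusted p = 0.0429) and Cd63, a protein of lysosomal membranes (362 ± 34.6 against 247 ± 21.8 CPM, adjusted p = 0.0174). Exons of Ctsb overlap those of Fdft1 on the other strand, and Ctsb did not pass with limma-voom (adjusted p = 0.886). The adjusted p of Cst7 reached 0.235 and that of Cd63 0.109 over all alternatives. Ly86, the partner of a toll-like receptor homologue, passed with a small difference (2356 ± 66.9 against 1864 ± 80.7 CPM, adjusted p = 0.0149). With Clec7a it made 2 of 28 tested pattern recognition genes, and 0 were lower.

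Among regulators, 4 genes passed at 0.05 of 32 tested transcription factors of microglia and macrophages, all higher in the Cb, with a median of 0.30 for the list. Atf3, a factor of the stress response, stood at 28.1, 26.2, 27.7 and 25.1 CPM in the Cb and at 4.94, 7.12, 5.23 and 6.43 CPM in the Cx (log2 fold change 2.17 ± 0.26, adjusted p = 9.54e-06). Cebpa, a myeloid factor whose exons overlap those of Gm45091 on the opposite strand, averaged 49.4 ± 6.07 against 31.4 ± 6.51 CPM (adjusted p = 0.00671). Egr1, an immediate early gene, averaged 24.2 ± 5.89 against 7.74 ± 2.35 CPM (adjusted p = 0.0334). The adjusted p reached 0.217 for Cebpa and 0.124 for Egr1 over all alternatives. Atf3 and Egr1 also belong to a list of 25 genes that respond to cell dissociation, in which they were the 2 that passed and 0 were lower. For 9 of the 25 the Cb libraries were all above, next to 3.22% of all genes tested. The median of that list was 0.21, and its part in the other differences was not tested.

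Other genes called higher in the Cb had separate roles. Sdc4, a cell surface proteoglycan, averaged 48.5 ± 5.41 against 19.7 ± 4.06 CPM (adjusted p = 8.44e-06), and Ank, which exports pyrophosphate, 107 ± 15.4 against 39.1 ± 2.68 CPM (adjusted p = 0.000609). Fam26f, Klk8 and Cdc42ep3 had adjusted p-values of 0.00141, 0.00194 and 0.00363, with mean ratios of 2.57, 2.25 and 3.49. Fam26f was not called without Cx replicate 3, Klk8 without Cx replicate 4, or Cdc42ep3 without Cx replicate 2, 3 or 4 or Cb replicate 2. Klk8 and Cdc42ep3 also lost their calls with limma-voom, with only the 8 libraries and with only the 12 libraries of P10. Exons of Klk8 overlap those of 2310002F09Rik, and exons of Cdc42ep3 those of Gm17315, on opposite strands. Slpi, an inhibitor of neutrophil proteases, stood at 2.25, 4.67, 1.37 and 0.155 CPM against 0.027, 0.159, 0 and 0.121 CPM, so that Cb replicate 4 fell within the Cx range (adjusted p = 0.00957). Leaving out any 1 library other than Cb replicate 4 ended the call of Slpi, as did limma-voom, limma-trend and the fit of only the 8 libraries. Mbp, a myelin protein gene, stood at 64.5, 67.9, 66.3 and 66.1 CPM against 16.1, 12.7, 21.0 and 14.5 CPM (log2 fold change 2.04 ± 0.34, adjusted p = 0.00129), and was not called without Cx replicate 2.

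For 2 genes all Cx libraries were without reads. Xylt1, which starts the sugar chains of proteoglycans, held 86, 189, 49 and 27 reads in the Cb, or 2.36, 3.30, 1.43 and 0.697 CPM, a mean at least 26.5-fold higher than a floor of 3 counts per Cx library. Neurod1, a factor of granule neurons, held 58, 251, 13 and 34 reads, or 1.59, 4.38, 0.378 and 0.878 CPM, at least 24.6-fold higher than that floor. Both passed (adjusted p = 0.0017 and 0.00747), and all Cb libraries lay above the Cx. The counts behind them were small, and Xylt1 was not called without Cx replicate 2, 3 or 4. Among the 8 fits that each left out 1 library, Neurod1 was called in 2, those without Cb replicate 3 or 4. Neither Xylt1 nor Neurod1 was called in the fit of only the 8 libraries or of only the 12 libraries of P10. Exons of Neurod1 overlap those of Cerkl and Gm26755.

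The 4 genes called lower in the Cb were separated in all libraries. Igfbp4, a binding protein that holds back insulin-like growth factors, stood at 254, 258, 262 and 281 CPM in the Cb and at 494, 545, 572 and 539 CPM in the Cx (log2 fold change -1.03 ± 0.14, adjusted p = 0.00012). Alox5, the lipoxygenase that starts leukotriene synthesis, stood at 21.9, 11.7, 21.4 and 19.3 CPM against 42.8, 44.9, 41.5 and 53.7 CPM (log2 fold change -1.30 ± 0.20, adjusted p = 0.000556). Olfml2b, an olfactomedin-like extracellular protein, averaged 81.0 ± 5.13 against 169 ± 9.84 CPM (adjusted p = 0.00175). Khdrbs3, an RNA-binding protein, averaged 29.5 ± 3.84 against 71.4 ± 15.3 CPM (adjusted p = 0.00098). Igfbp4 and Olfml2b lay close to the limit of 1 log2 unit, and leaving out Cb replicate 2 or Cx replicate 3 ended both calls, as leaving out Cb replicate 1 did for Igfbp4 and Cb replicate 2 for Khdrbs3. Alox5 was not called in the fit of only the 8 libraries or of only the 12 libraries of P10.

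Further genes were lower at the 0.05 limit. The gelatinase gene Mmp2 averaged 46.1 ± 5.13 against 88.0 ± 6.42 CPM (adjusted p = 0.00197), the collagen receptor gene Mrc2 55.3 ± 10.7 against 126 ± 17.4 CPM (adjusted p = 0.0144) and the TGF-beta target Tgfbi 39.5 ± 4.90 against 63.8 ± 8.18 CPM (adjusted p = 0.0403). Bank1, an adaptor of immune signalling, Grap, whose exons overlap those of Slc5a10, and the linker histone gene H1f0 had log2 fold changes of -0.84, -0.75 and -0.68, each without overlap. Over all alternatives the adjusted p reached 0.0913 for Mrc2, 0.225 for Tgfbi, 0.131 for Bank1, 0.0997 for Grap and 0.105 for H1f0.

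Of 20 genes of homeostatic microglia, 16 had log2 fold changes under 0 and 4 above, with a median of -0.09. At 0.05, 3 were lower in the Cb and 0 were higher. For 9 of the 20 all Cb libraries lay below, next to 4.85% of all genes tested. P2ry12, the ADP receptor that guides microglial processes, stood at 12085, 11235, 11666 and 11688 CPM in the Cb and at 14823, 15649, 15751 and 14869 CPM in the Cx, a ratio of Cx to Cb of 1.31 (log2 fold change -0.39 ± 0.09, adjusted p = 0.0349). Its exons overlap those of Med12l on the opposite strand. P2ry13, a related receptor, averaged 3551 ± 143 against 4584 ± 194 CPM (adjusted p = 0.0414), and Olfml3, a secreted protein, 3740 ± 105 against 4844 ± 186 CPM (adjusted p = 0.00116). Over all alternatives the adjusted p reached 0.207 for P2ry12, 0.195 for P2ry13 and 0.0732 for Olfml3. Tmem119 was just outside the limit (3802 ± 259 against 5041 ± 179 CPM, adjusted p = 0.0538). Trem2, a lipid receptor, averaged 1512 ± 112 against 1235 ± 44.2 CPM (adjusted p = 0.203). In the fit of only the 8 libraries 9 of the 20 were lower, and with limma-voom 10. Both fits passed more of all genes tested at 0.05 than the fit of all libraries (last section). The shares given for that fit therefore do not apply to them. In bulk samples, fewer cells of a kind and less RNA per cell cannot be told apart.

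**Figure D3:**
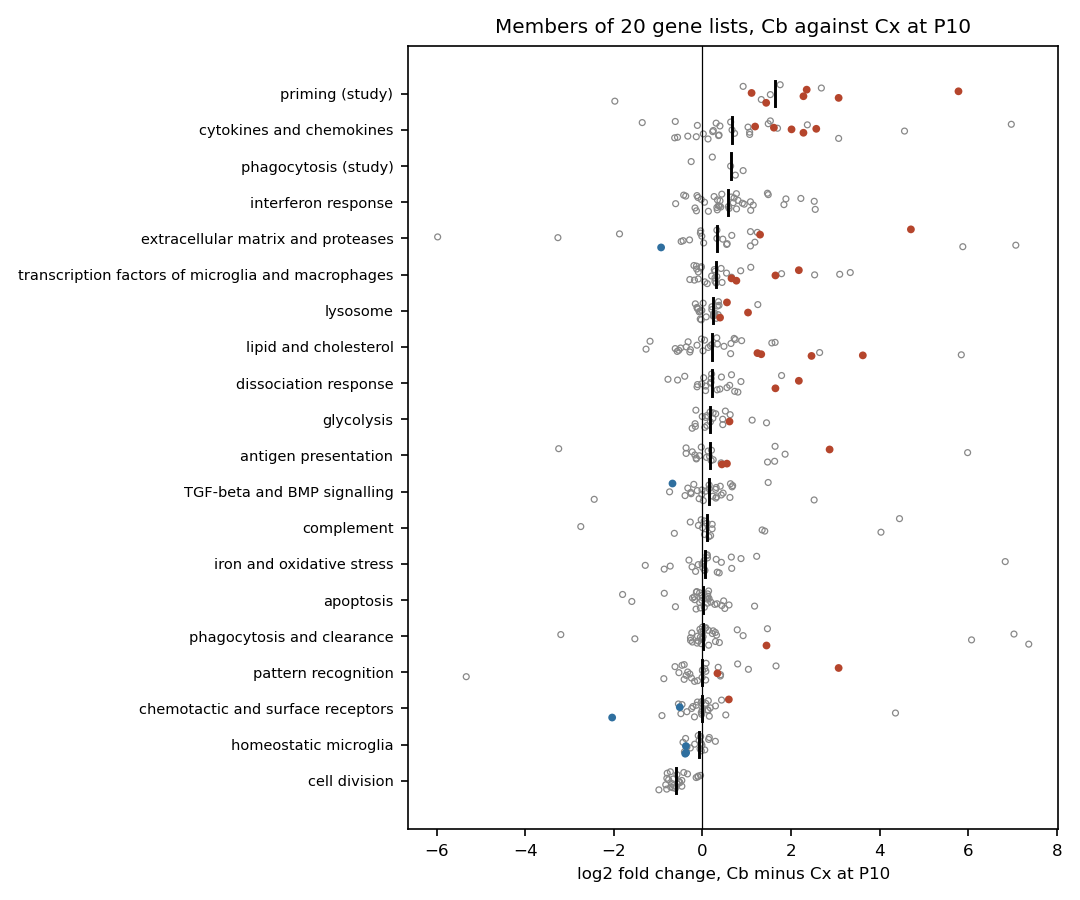
Log2 fold change between the Cb and Cx at P10 of the tested members of 20 gene lists, ordered by median. Each circle is a gene, filled where its adjusted p was 0.05 or less (red higher, blue lower in the Cb), and the black line is the median. The cell division genes all lie below 0 without a filled circle.

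Among 26 genes of cell division, 0 passed at 0.05 (edgeR), yet all 26 had log2 fold changes under 0, with a median of -0.59. Of all 20917 genes tested, 10882 were under 0. For 17 of the 26 the Cb libraries were all below those of the Cx, next to 4.85% of all genes tested. Mki67, the marker of cycling cells, stood at 54.2, 60.5, 47.5 and 50.9 CPM in the Cb and at 81.8, 108, 109 and 123 CPM in the Cx (adjusted p = 0.563). In the fit of only the 8 libraries 8 of the 26 were lower at 0.05, with limma-voom 6, with DESeq2 2 and with limma-trend 0. The fit of only the 8 libraries, limma-voom and DESeq2 also passed more of all genes tested at 0.05 than the fit of all libraries (last section). In the interferon response list, 0 of 39 tested genes passed and 31 were above 0, next to 9588 of all 20917 genes tested. All Cb libraries lay above for 10 of the 39, next to 3.22% of all genes tested. The median was 0.59, and 0.42 over the 34 members with a mean of 1 CPM or more.

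None of 17 tested complement genes, 25 of iron handling and oxidative stress or 32 of apoptosis passed at 0.05, with medians of 0.10, 0.05 and 0.02. Of 35 tested genes of phagocytosis and clearance, Axl was the 1 that passed. Of 21 glycolytic genes, Aldoa was higher (279 ± 17.2 against 185 ± 11.9 CPM, adjusted p = 0.00267), with exons shared with Fam57b. Of 30 genes of TGF-beta and BMP signalling, Tgfbi was lower, and of 25 of the extracellular matrix and proteases, Sdc4 and Slpi were higher and Mmp2 was lower.

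The genes called were looked up among promoters from RefSeq (GRCm38.p6, 250 bases before to 50 after each start), where 20 of the 31 had an entry, 17 of those higher and 3 of those lower. The letters of 7 motifs were searched on both strands. The AP-1 motif TGACTCA, whose reverse complement is TGAGTCA, was found at Gpnmb and Itgax, the E-box CACGTG at Nceh1 and Slpi, the PU.1 motif GAGGAAGT at Nceh1, the interferon motif GAAANNGAA at Apoe and the KLF motif GGGTGTGG at Igfbp4. Of all 32851 promoters of the same length, 5.20%, 7.15%, 3.20%, 8.56% and 3.56% held these. The KLF variant GGGCGTGG (5.33% of promoters) and the CRE motif TGACGTCA (1.79%) were found at none of the 20. The 250 bases before the start are shown for the gene with the largest read count among those called (Apoe), for a gene with each of the AP-1, PU.1 and E-box letters (Itgax and Nceh1), for Clec7a, which held none, and for Igfbp4, which was lower, 5′ to 3′ on the strand of the gene with the matches in capitals. They lie at chr7:19699189-19699438 (minus strand, the first of 3 starts in the table), chr7:128129300-128129549 (plus), chr3:27182754-27183003 (plus), chr6:129472780-129473029 (minus, the first of 2 starts) and chr11:99040994-99041243 (plus). The capitals in Nceh1 are the reverse complement of the PU.1 letters and the E-box, and those in Itgax are the AP-1 letters on the reverse strand.
Apoe: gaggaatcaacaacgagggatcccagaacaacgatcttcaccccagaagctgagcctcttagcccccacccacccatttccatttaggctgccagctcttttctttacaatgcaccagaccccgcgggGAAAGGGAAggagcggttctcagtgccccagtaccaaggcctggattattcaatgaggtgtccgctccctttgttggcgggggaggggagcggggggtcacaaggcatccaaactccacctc
Itgax: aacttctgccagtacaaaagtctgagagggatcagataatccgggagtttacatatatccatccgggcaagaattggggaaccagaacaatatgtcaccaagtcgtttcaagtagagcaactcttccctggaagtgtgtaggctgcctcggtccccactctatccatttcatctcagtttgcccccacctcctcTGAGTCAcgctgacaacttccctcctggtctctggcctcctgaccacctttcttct
Nceh1: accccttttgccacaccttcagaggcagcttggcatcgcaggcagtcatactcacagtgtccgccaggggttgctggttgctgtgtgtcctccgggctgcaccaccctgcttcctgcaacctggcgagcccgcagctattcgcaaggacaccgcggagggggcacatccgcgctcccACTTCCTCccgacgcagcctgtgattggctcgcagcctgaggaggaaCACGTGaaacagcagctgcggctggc
Clec7a: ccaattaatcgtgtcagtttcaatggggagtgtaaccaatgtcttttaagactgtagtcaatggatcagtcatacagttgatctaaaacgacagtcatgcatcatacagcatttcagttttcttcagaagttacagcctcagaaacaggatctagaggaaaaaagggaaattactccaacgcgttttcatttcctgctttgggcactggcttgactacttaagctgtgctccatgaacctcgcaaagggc
Igfbp4: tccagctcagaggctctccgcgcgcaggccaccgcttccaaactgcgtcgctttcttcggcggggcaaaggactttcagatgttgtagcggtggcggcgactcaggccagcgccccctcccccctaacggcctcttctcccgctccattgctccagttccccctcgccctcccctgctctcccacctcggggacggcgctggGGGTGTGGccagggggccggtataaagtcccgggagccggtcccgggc

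A match is a run of letters and not a measured binding site.

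The P7 and P42 libraries shared no library with those of P10. At P7, 224 genes were higher in the Cb than in the Cx at an adjusted p of 0.05 (1.07% of genes tested) and 86 were lower (0.411%), and at P42 342 were higher (1.64%) and 379 lower (1.81%). All 27 genes called higher at P10 had a log2 fold change above 0 at P7, and 22 of them passed at 0.05. At P42, 22 of the 27 were above 0 and 14 passed, while Lag3 and Abcg1 passed in the opposite direction. Of the 4 genes called lower at P10, 4 were below 0 and 3 passed at P7, and at P42 2 were below 0 and Khdrbs3 passed. Clec7a, Apoe, Apoc1, Cd74, Lyz2, Nceh1 and Igf1 were among the genes higher in the Cb at all 3 ages. For Apoc1 the difference at P42 rested on few reads. It stood there at 1.55, 0.148, 0.418 and 0.644 CPM in the Cb and at 0.0351, 0.0264, 0 and 0 CPM in the Cx. Clec7a averaged 141 ± 12.7 CPM in the Cb and 11.3 ± 0.559 CPM in the Cx at P7 (n = 3), and 121 ± 10.3 and 24.0 ± 8.12 CPM at P42 (n = 4). Apoe averaged 13587 ± 681 and 2847 ± 644 CPM at P7, and 958 ± 354 and 258 ± 91.3 CPM at P42, with log2 fold changes of 2.25 and 1.89 beside 2.46 at P10.

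**Figure D4:**
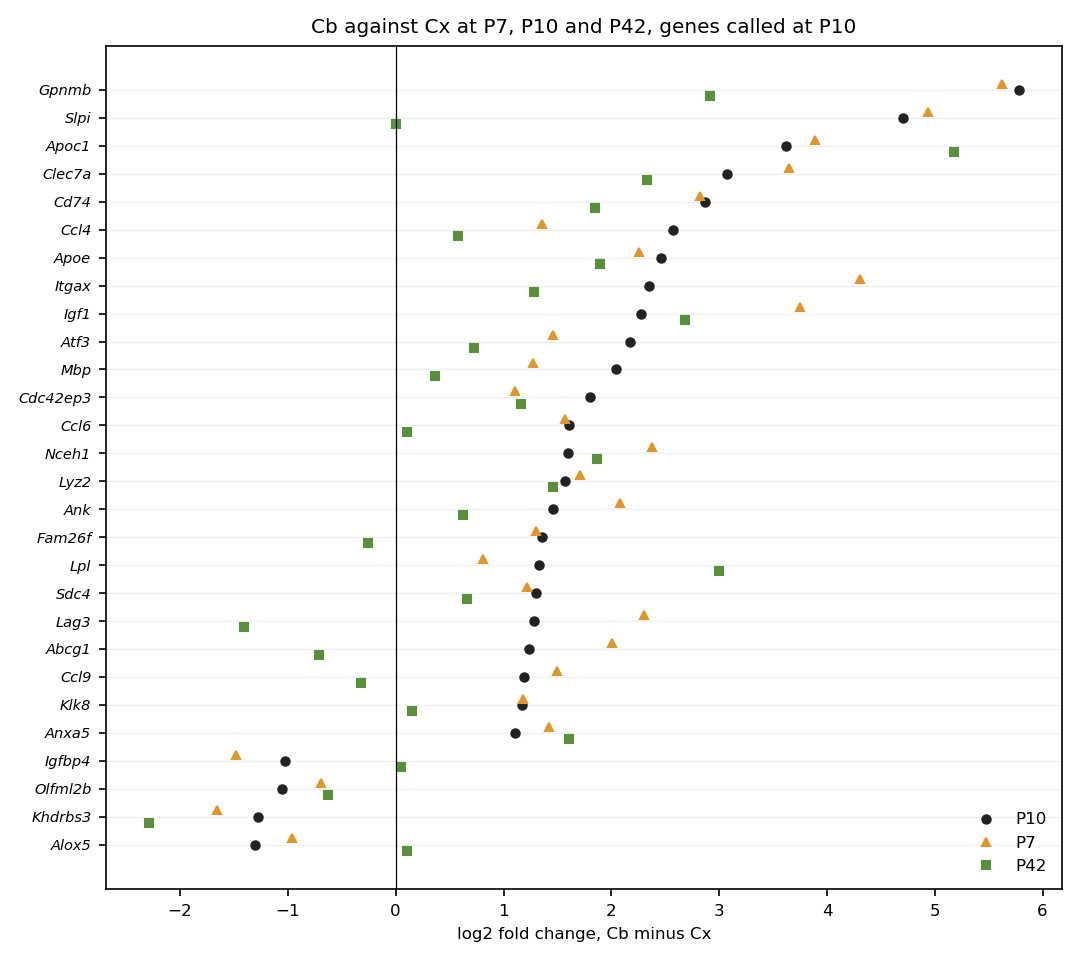
Log2 fold change between the Cb and Cx at P7 (triangles), P10 (circles) and P42 (squares) for 28 of the 31 genes called at P10, with Neurod1 and Xylt1 among those not drawn. All triangles share the sign of the circles, and 5 squares of the genes higher at P10 lie at or left of 0.

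Between P7 and P10 the difference between the Cb and Cx was tested itself. At the limits used for calling, the difference of 0 genes changed (0% of genes tested) with edgeR, 4 with limma-voom, 6 with limma-trend and 1 with DESeq2, and 1155 had an unadjusted p under 0.05. With edgeR, 1 gene changed without Cb P10 replicate 3 and 2 without Cx P7 replicate 2. At an adjusted p of 0.05, 14 genes did, but 26 without Cx P7 replicate 2, 9 without Cb P7 replicate 3, 36 with limma-voom, 34 with limma-trend and 107 with DESeq2. For 13 of the 14 the difference was lower at P10 than at P7, the exception being U2af2. They included the lysosomal genes Ctsd (log2 fold change 0.96 at P7 and 0.08 at P10, adjusted p = 7.1e-05), Ctsl (1.01 and 0.24, adjusted p = 0.000143), Ctsb (0.93 and 0.40, adjusted p = 0.0109), Grn (0.49 and -0.16, adjusted p = 0.00062) and Hexa (0.51 and -0.07, adjusted p = 0.000664). Spp1 went from a mean of 4289 ± 1750 CPM in the Cb at P7 to 222 ± 94.5 CPM at P10, and in the Cx it was 88.6 ± 8.99 and 76.9 ± 12.3 CPM, but its change did not pass (log2 fold change 5.60 at P7 and 1.53 at P10, adjusted p of the change = 0.118).

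Between P10 and P42 the difference changed for 54 genes, toward the Cb for 29 (0.139%) and toward the Cx for 25 (0.12%). Of these, 8 were also called at P10. Abcg1, Lag3, Ccl6, Ccl9 and Fam26f moved toward the Cx, Lpl further toward the Cb, and Igfbp4 and Alox5 from lower in the Cb to log2 fold changes of 0.05 and 0.11 at P42. Lag3 stood at 20.1, 16.7, 29.3 and 18.4 CPM in the Cb at P42 and at 57.3, 52.9, 60.4 and 52.8 CPM in the Cx, the reverse of P10 (log2 difference between ages -2.69, adjusted p = 6.01e-08). Abcg1 stood at 111, 113, 132 and 146 CPM against 185, 201, 226 and 212 CPM (log2 difference -1.95, adjusted p = 8.04e-09). In both genes the regions were separated at both ages, with the order turned around. Lpl averaged 223 ± 22.6 CPM in the Cb and 27.8 ± 6.60 CPM in the Cx at P42, a log2 fold change of 3.00 in place of 1.33 (adjusted p of the difference = 0.000338). Ccl6 averaged 256 ± 28.6 and 237 ± 29.1 CPM (log2 fold change 0.11).

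Genes that did not pass at P10 and whose difference changed by P42 included Emp3 (log2 fold change -0.04 and 2.68, adjusted p of the difference = 3.58e-09), a membrane protein of myeloid cells, the transcription factor gene Klf2 (0.66 and 4.45, adjusted p = 1.06e-07) and Crybb1 (-0.17 and -1.69, adjusted p = 6.01e-08), a crystallin gene that microglia express. Klf2 stood at 29.7, 30.2, 37.2 and 37.4 CPM in the Cb and at 18.2, 23.4, 22.6 and 21.3 CPM in the Cx at P10, and at 40.9, 38.9, 36.0 and 64.2 against 1.93, 1.45, 2.30 and 2.55 CPM at P42. Lsp1, Ifi30 and Traf3ip3 also moved toward the Cb by 1.43, 1.54 and 1.05 log2 units. The number of genes whose difference changed lay between 32 and 50 when 1 library at a time was left out, and it was lowest without Cb P10 replicate 3. Without Cx P10 replicate 2 or 4, or Cb P10 replicate 1, it was 34, and without Cx P10 replicate 3 it was 33.

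The CC libraries of P10 were tested against the same 4 Cx libraries, so the values below share controls and are given side by side. Against the Cx, 337 genes were higher in the CC at an adjusted p of 0.05 (1.61%) and 505 lower (2.41%). Apoe had a log2 fold change of 3.16 in the CC and 2.46 in the Cb, Clec7a 3.26 and 3.07, Ccl6 2.06 and 1.61, and Ccr1 -2.62 and -2.04. Cd74 had 0.92 in the CC (adjusted p = 0.103) and 2.87 in the Cb, and it was higher in the Cb than in the CC (log2 fold change 1.95, adjusted p = 0.00124). Cdc42ep3 (1.43, adjusted p = 0.0201), Ly86 (0.41, adjusted p = 0.00161) and Neurod1 (adjusted p = 0.0137) were also higher in the Cb than in the CC, and Ccl6 (-0.45, adjusted p = 0.0198) and Igfbp4 (-0.64, adjusted p = 0.0196) were lower.

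Markers of other cells differed between the groups and are given as sums of CPM. Red cell markers, 7 genes led by the haemoglobin genes, summed to 102 to 129 CPM in the Cb and to 0.182 to 12.2 CPM in the Cx, where Cx replicate 1 held the 12.2. Hbb-bs stood at 63.7, 76.2, 65.1 and 71.6 CPM in the Cb and at 8.31, 0.0455, 0 and 0.0484 CPM in the Cx. Even so, 0 of the 7 passed at 0.05 in the fit of all libraries (adjusted p = 0.258 for Hbb-bs). Oligodendrocyte markers, 10 genes, summed to 229 to 259 CPM in the Cb and 145 to 159 CPM in the Cx. Cnp, which made up 65.3% of that sum, aside, they came to 100 to 116 and 30.1 to 35.4 CPM, led by Mbp, the 1 marker that passed. Granule cell markers, 10 genes with Atoh1 at 0, summed to 1.96 to 4.97 CPM in the Cb and 0.027 to 0.478 CPM in the Cx, with 42.6% of the sum from Neurod1. The part of these cells in the calls of Mbp and Neurod1 was not tested.

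Border macrophage markers, 12 genes, summed to 276 to 340 CPM in the Cb and 674 to 731 CPM in the Cx. Mrc1 made up 59.3% of the sum, and without it the ranges overlapped, at 170 to 207 CPM and 202 to 250 CPM. In the fit of all libraries none of the 12 passed at 0.05, though Mrc1 passed in other fits, as given above. Monocyte markers summed to 19.4 to 27.8 CPM against 14.9 to 19.4 CPM, with Ly6c2 and Cd209a among those at 0, and neutrophil markers to 0.105 to 4.28 CPM against 0 to 0.227 CPM, with Ly6g and Ltf at 0. Lymphocyte markers summed to 132 to 150 CPM and 132 to 138 CPM, of which 99.3% was Cd79b. Astrocyte markers summed to 114 to 159 CPM and 97.0 to 104 CPM, of which 77.7% was Slc1a3, and to 27.2 to 51.6 CPM and 9.90 to 21.0 CPM without it. None of the 10 passed at 0.05. Markers of precursors of oligodendrocytes summed to 2.92 to 5.65 CPM and 0.653 to 2.75 CPM. Markers of neurons (7.54 to 15.2 and 5.53 to 12.3 CPM) and of endothelial cells (53.8 to 80.3 and 47.9 to 56.3 CPM) overlapped, those of Purkinje cells were at 8.83 to 11.4 and 12.7 to 14.8 CPM, and those of mural cells and fibroblasts at 0.740 to 2.44 and 1.94 to 4.91 CPM. Markers of cortical excitatory neurons were 99.8% Mef2c, which microglia express, and came to 0.603 to 1.39 and 1.38 to 2.75 CPM without it.

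**Figure D5:**
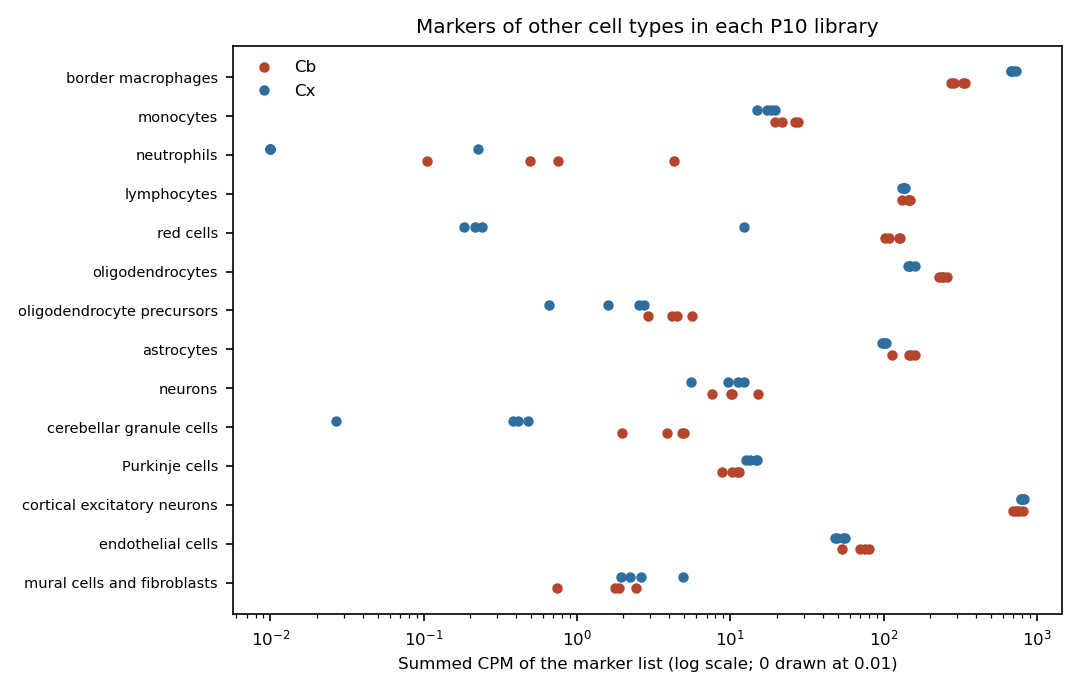
Summed CPM of marker genes of 14 other cell types in each Cb and Cx library of P10, on a log axis with 0 drawn at 0.01. The red cell, granule cell and oligodendrocyte sums of the 4 Cb libraries lie to the right of those of the Cx, and the border macrophage sums to the left.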

How the data were processed

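The authors deposited counts, 1 whole number of reads per gene and library, for 33 libraries of sorted microglia. Per the labels and methods, cDNA was made with the SMARTer v4 kit and Nextera XT, demultiplexed with CASAVA 1.8.2, aligned to GRCm38 with STAR 2.5.2b and counted with featureCounts 1.6.2, with reads on several places or genes discarded. The strand setting is not given in the sources used here, so reads in exons that overlap another gene were either discarded or assigned by strand. Spike-in rows were left out of library sizes.

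Of 48587 genes, 17212 had no reads in any library, and of the rest the 10458 with the fewest reads (26 at most over all libraries) were removed, which left 20917. All 33 libraries were fitted by group with edgeR 4.0.16 (quasi-likelihood test, TMM, R 4.3.3), and p-values were adjusted by Benjamini-Hochberg over all genes tested. Differences between ages were tested in the same fit. CPM are counts over the summed counts of genes scaled by the TMM factor. Fold changes of genes with reads are the fitted values, and of genes at 0 in a group bounds against 3 counts per library. The methods name limma, which with voom, limma-trend (limma 3.58.1), DESeq2 1.42.0, other filters and scaling, a sex term, the replicate block, fewer libraries and each library left out served as alternatives. Limma-trend was added after the data were seen. The steps were tested on simulated data.

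The gene lists and tests were chosen with earlier results of these data known. Genes were named where called, as up to 4 members of a list with the smallest adjusted p at 0.05, where the study names them, as the 10 largest increases and decreases at 0.05 with at least 50 CPM and no overlap, and as up to 5 a direction of the genes whose difference changed between ages with at least 10 CPM. Ccl3, Csf1r, Tmem119, Trem2, Mki67, Hbb-bs and the genes changed between P7 and P10 were named after their values were seen. Exon overlaps and positions come from GENCODE vM21 on GRCm38. Some named genes and their results are not reported here.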

Additional observations from a re-analysis of the deposited data

Results flagged for a closer look

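Of 170 sets of 4 libraries examined, 10 held 1 library that stood apart from the other three by more than Dixon's 95% limit. Chance flags about 1 in 20 such sets. In the Cb, Lyz2 was at 540 CPM in replicate 4 (782 to 821 CPM in the others) and Cd83 at 243 CPM in the same library (316 to 319 CPM). Cb replicate 3 had 6.95 CPM of Lgals3 (3.44 to 4.03 CPM) and 192 CPM of Lsp1 (175 to 178 CPM). Cb replicate 2 had 64.6 CPM of Grap (77.8 to 80.5 CPM), and Cb replicate 1 had 4.28 CPM summed over the neutrophil markers (0.105 to 0.757 CPM). In the Cx, replicate 1 had 21.3 CPM of Cd74 (11.2 to 12.3 CPM) and 12.2 CPM of red cell markers (0.182 to 0.239 CPM), replicate 2 had 0.227 CPM of neutrophil markers (0 in the others) and replicate 3 had 1.43 CPM of Apoc1 (2.68 to 2.83 CPM).

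The difference between the Cb and Cx was not the same at P10 and P42 for 17 of the genes named by the rules above, by a test of the change itself. By the same test it also changed for 2 genes mentioned outside those rules. They were Mki67 (log2 fold change -0.98 at P10 and 4.52 at P42, adjusted p = 0.0093) and Slc1a3 (0.32 and -0.85, adjusted p = 0.00093). For the 17, on the log2 scale, P42 minus P10, the change was 3.79 for Klf2, 2.72 for Emp3, 1.68 for Lpl, 1.54 for Ifi30, 1.43 for Lsp1, 1.41 for Alox5, 1.18 for Tgfbi, 1.07 for Igfbp4 and 1.05 for Traf3ip3, and it was -2.69 for Lag3, -1.95 for Abcg1, -1.62 for Fam26f, -1.52 for Crybb1, -1.51 for Ccl9, -1.50 for Ccl6, -1.24 for Abca1 and -1.07 for Aldoa. Exons of Ifi30 overlap those of RP23-410L16.8, exons of Traf3ip3 those of A130010J15Rik and exons of Aldoa those of Fam57b.

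Spike-in sequences, which no comparison used, held at most 18 reads in 1 of the 8 libraries.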

How the results depend on the processing

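The 31 genes called between the Cb and Cx became 60 with limma-voom (23 shared), 95 with DESeq2 (31 shared) and 17 with the replicate block on only the 12 libraries of P10 (14 shared), next to 24 on those 12 libraries without the block (20 shared), and 19 to 33 when 1 library at a time was left out. Those higher became 60 with DESeq2, 13 with the block on those 12 libraries (19 without it) and 17 to 29 with 1 library left out. Those lower became 27 with limma-voom, 11 with limma-trend, 35 with DESeq2, 12 with only the 8 libraries and 1 to 4 with 1 library left out. The count at 0.05 became 287, 256 and 285 with limma-voom, DESeq2 and only the 8 libraries, and 53 to 85 with 1 left out. Between P7 and P10 the count of changed differences was 4, 6 and 1 with limma-voom, limma-trend and DESeq2 and 0 to 2 with 1 left out, and between P10 and P42 it was 165 with DESeq2 and 32 to 50 with 1 left out. The cause was not tested. Of the 31 genes, 11 were called in all 18 alternatives. Apoe lost its call with limma-voom alone (log2 fold change 2.5, adjusted p = 0.738, from 1.96e-30 over the alternatives), in which it had a residual SD of 106 against a median of 0.954. Ctsb, at 0.05 in the other alternatives, did not pass with limma-voom either (adjusted p = 0.886, residual SD 161.7). The sources do not say whether libraries with the same replicate number came from the same mice, and the correlations below cannot decide it. Of 4 same-numbered pairs, 0 had a correlation over 0.1 (range 2.04e-05 to 0.084). The highest were those of replicates 3 (0.073) and 4 (0.084), and 4 of 8 libraries correlated best with their own number. The fit with the replicate block did not call 17 of the 31 genes. Of these, 10 (Ccl4, Alox5, Anxa5, Klk8, Itgax, Cdc42ep3, Gpnmb, Slpi, Neurod1 and Xylt1) were not called on the 12 libraries without the block either. The other 7 (Lag3, Sdc4, Khdrbs3, Olfml2b, Nceh1, Mbp and Fam26f) were called there.

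Of 54 named genes at 0.05, 26 kept it in every alternative and 0 changed sign. Named genes that did not pass and changed sign were Cx3cr1 (0.0017 with filterByExpr, 0.00012 with the replicate block, 0.00024 with only the 12 libraries of P10, -0.028 to 0.024 with 1 left out), Emp3 (-0.064 to 0.013 with 1 left out) and Cd36 (0.92 in the fit of all libraries, -1.43 with limma-voom, -0.43 with limma-trend). Scaling moved the median of all genes by less than 0.1. Genes under about 1 CPM rest on few reads, and 4 libraries a side limit small differences.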
